A study of Sus scrofa with 8 samples.

Results

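The enzymes described here make or remove eicosanoids, the signalling lipids cut from arachidonic acid, and platelet-activating factor (PAF), a phospholipid messenger of inflammation. They are 10 genes picked by symbol from the 18103 genes of the hepatic RNAseq table, namely ALOX5, ALOX5AP, LTA4H, LTC4S, PTGS1, PTGS2, TBXAS1, HPGDS, HPGD and PLA2G7. All 10 were present in the table, and 8 passed the filter on low values (at least 0.3 FPKM in at least 4 of 8 libraries) that left 13175 genes for testing. ALOX5 and HPGDS did not pass it and are given as values.

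Livers of male Landrace x Large White pigs were sampled before and after a steatotic diet, which was poor in methionine and choline and rich in cholesterol, cholate, fructose and saturated fat. The Control group was the healthy initial state at 4 months of age, and the Steatosis group was the final state at 6 months, after 2 months on the diet. The paper describes both groups as the same animals. Each group had 4 libraries, and each library pooled the RNA of 2 pigs, so the spread between libraries is a spread between pools. Control livers were biopsied by laparotomy and Steatosis livers were taken after euthanasia, and no sequenced pigs were kept on the control diet over the same time. Diet, age and the way of sampling therefore cannot be told apart in any difference given below.

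Arachidonic acid is released from membranes by phospholipases and then enters one of several branches. In the leukotriene branch, 5-lipoxygenase works with its activating protein FLAP, and the product is turned into leukotriene B4 or the cysteinyl leukotrienes. In the prostanoid branch, the cyclooxygenases make the precursor that terminal synthases turn into prostaglandins and thromboxane. Many of these enzymes are known from myeloid cells, mast cells and platelets, while the enzymes that inactivate prostaglandins are also found in epithelia and parenchyma.

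Values are FPKM (fragments scaled by transcript length and library size), which can be compared between genes because they are per length. Depth was read from the spacing of low FPKM values and lay between 90.0% and 100% of the deepest library. Control pool 1 stood apart, since its skeletal muscle markers summed to 2586 FPKM against at most 18.9 in any other library, and its stomach mucosa markers to 1543 FPKM against at most 29.2. Results of enzymes that moved with that pool are therefore also given without it. The hepatocyte markers were abundant in every library, with sums between 57554 and 96946 FPKM, where all genes of a library summed to 511863 to 545731 FPKM. Over all tested genes the median log2 fold change was 0.25, and it was -0.01 when the libraries were scaled by median ratios, so a rise of an enzyme by 0.25 was no more than the shift of the whole table.

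In Steatosis, 5 of the 8 tested enzymes rose (ALOX5AP, PTGS1, TBXAS1, PLA2G7 and LTA4H), 1 fell (HPGD) and 2 did not pass the test (LTC4S and PTGS2), at an adjusted p under 0.05 in limma over all tested genes. By the same rule 26.7% of all tested genes rose and 2.28% fell, so rises were common in the table and falls were rare. With median ratio scaling, 4 enzymes rose and 1 fell at that adjusted p, and LTA4H did not pass. With the stricter limits taken from the study (a log2 fold change beyond 1 at an adjusted p under 0.01), 1 enzyme rose, ALOX5AP, and 0 fell, against 6.01% (792) and 0.334% (44) of all tested genes. With median ratio scaling these counts of all genes were 411 and 83, and 0 enzymes passed these limits. The median log2 fold change of the 8 tested enzymes was 0.64. Among all 10 enzymes, the groups did not overlap in 4 that were higher and 1 that was lower, against 29.6% and 2.53% of all tested genes.

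**Figure D1:**
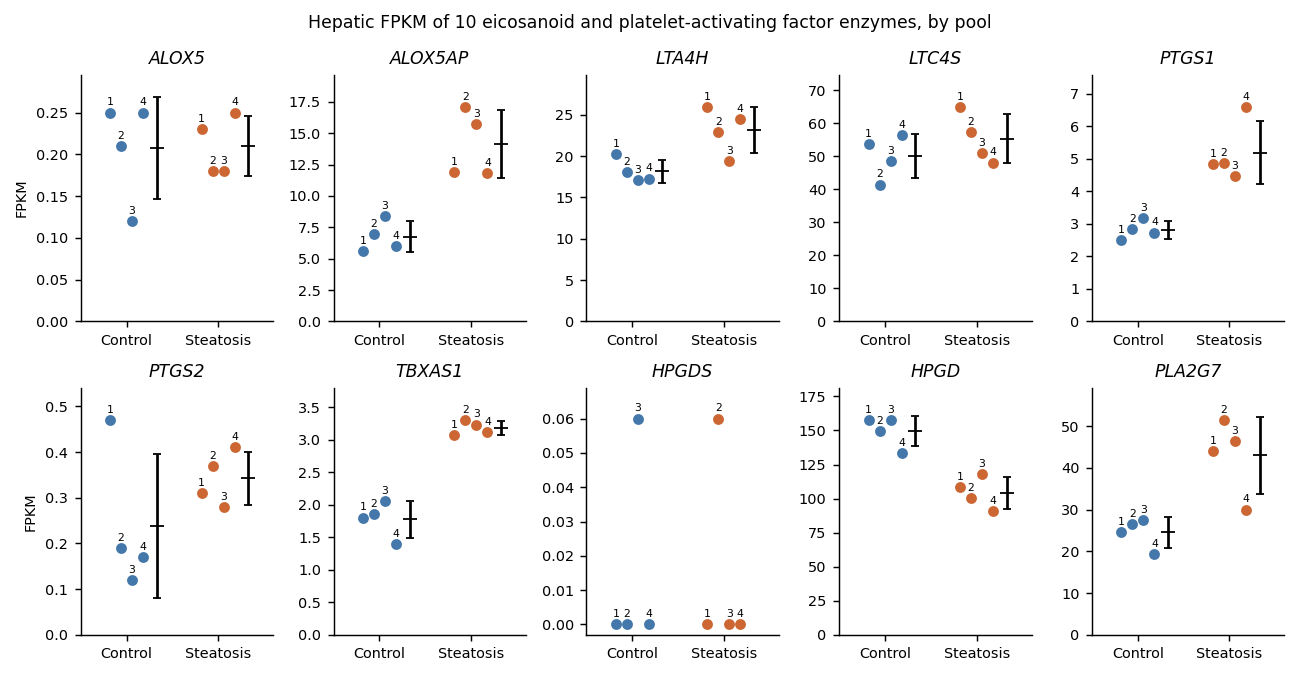
FPKM (vertical axes, from 0, scaled per gene) of the 10 enzymes in the 4 Control and 4 Steatosis libraries. Points are pools with their number, and bars are mean and SD, left out for HPGDS, which was at 0 in 6 of 8 libraries. ALOX5AP, PTGS1, TBXAS1 and PLA2G7 lay higher in every Steatosis pool, HPGD lay lower in every one, and the other enzymes overlapped.

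The enzymes spanned most of the range of hepatic expression. The order of mean FPKM over the 8 libraries was HPGD (127), LTC4S (52.7), PLA2G7 (33.7), LTA4H (20.7), ALOX5AP (10.5), PTGS1 (4.00), TBXAS1 (2.48), PTGS2 (0.29), ALOX5 (0.209) and HPGDS (0.015). HPGD lay above 97.3% of all genes in the table, whereas PTGS2 and ALOX5 lay above 26.6% and 24.0%. Some neighbours in this order were not separated by their spread. In Control, PLA2G7 (19.4 to 27.4 FPKM) overlapped LTA4H (17.1 to 20.2 FPKM), and in Steatosis, LTC4S (48.1 to 65.0 FPKM) overlapped PLA2G7 (29.97 to 51.43 FPKM). PTGS2 and ALOX5 overlapped in Control.

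ALOX5 (gene ID 100156205; Sscrofa11.1, chromosome 14, 90859209 to 90907084) encodes 5-lipoxygenase, the enzyme that starts leukotriene synthesis. It measured 0.25, 0.21, 0.12 and 0.25 FPKM in Control pools 1 to 4, and 0.23, 0.18, 0.18 and 0.25 FPKM in Steatosis pools 1 to 4. The groups overlapped throughout, with means of 0.2075 ± 0.0613 and 0.21 ± 0.0356 FPKM (SD, n = 4 each). The difference gave an exact permutation p of 1. These values correspond to only about 6 to 12 fragments per library, so a moderate change of ALOX5 could not have been detected at this depth.

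ALOX5AP (gene ID 397392; chromosome 11, 7371328 to 7438111) encodes FLAP, the membrane protein that presents arachidonic acid to 5-lipoxygenase, and it showed the largest rise among the enzymes. It measured 5.61, 6.98, 8.42 and 6.03 FPKM in Control and 11.9, 17.1, 15.8 and 11.8 FPKM in Steatosis. Every Steatosis pool lay above every Control pool. The means were 6.76 ± 1.25 and 14.1 ± 2.70 FPKM, a log2 fold change of 1.05 (SE 0.17, 95% interval 0.68 to 1.42) with an adjusted p of 0.0018 in limma. The fold change lay just beyond the limit of 1, and it fell short of it without Control pool 1 (0.97), without Steatosis pool 2 (0.95), without Steatosis pool 3 (0.99), with a pseudocount of 1 (0.96) and with median ratio (0.78) or upper quartile (0.83) scaling. The adjusted p stayed between 0.0018 and 0.00701 in limma when single libraries were left out.

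LTA4H (gene ID 100154219; chromosome 5, 87486552 to 87518520) encodes leukotriene A4 hydrolase, which forms leukotriene B4, a neutrophil attractant. It measured 20.2, 18.1, 17.1 and 17.3 FPKM in Control and 26.0, 22.9, 19.4 and 24.4 FPKM in Steatosis. Steatosis pool 3 lay below Control pool 1, and the other 3 Steatosis pools lay above all Control pools. The means were 18.2 ± 1.42 and 23.2 ± 2.81 FPKM, and the log2 fold change was 0.35 (SE 0.11, 95% interval 0.10 to 0.59), with an adjusted p of 0.0415 in limma and an exact permutation p of 0.0571. With median ratio scaling the log2 fold change was 0.07 (adjusted p 0.674 in limma). The adjusted p in limma lay between 0.0697 and 0.112 when any of Control pools 2, 3 and 4 or Steatosis pools 1, 2 and 4 was left out. Without Control pool 1 the log2 fold change was 0.40 (adjusted p 0.0341 in limma), and without Steatosis pool 3 it was 0.43 (adjusted p 0.0227 in limma).

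LTC4S (gene ID 100520063; chromosome 2, 78799446 to 78802281) encodes leukotriene C4 synthase, which joins leukotriene A4 to glutathione and so opens the cysteinyl leukotriene branch. It measured 53.7, 41.5, 48.6 and 56.5 FPKM in Control and 65.0, 57.2, 51.0 and 48.1 FPKM in Steatosis. The groups overlapped, and Steatosis pool 4 was lower than 3 of the 4 Control pools. The means were 50.1 ± 6.60 and 55.3 ± 7.50 FPKM, with a log2 fold change of 0.14 (95% interval -0.14 to 0.43) and an adjusted p of 0.42 in limma, and with median ratio scaling the log2 fold change was -0.13. Within every library its FPKM exceeded that of LTA4H, by 2.29 to 3.27 times in Control and by 1.97 to 2.63 times in Steatosis.

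PTGS1 (gene ID 397541; chromosome 1, 262456106 to 262482159) encodes cyclooxygenase-1, the form present in most tissues and in platelets. It measured 2.49, 2.84, 3.17 and 2.73 FPKM in Control and 4.84, 4.86, 4.47 and 6.60 FPKM in Steatosis. The groups did not overlap, and Steatosis pool 4 stood highest. The means were 2.81 ± 0.282 and 5.19 ± 0.955 FPKM, a log2 fold change of 0.85 (SE 0.15, 95% interval 0.53 to 1.18) with an adjusted p of 0.00249 in limma.

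PTGS2 (gene ID 397590; chromosome 9, 127850164 to 127858866) encodes cyclooxygenase-2, the form induced by inflammatory stimuli. It measured 0.47, 0.19, 0.12 and 0.17 FPKM in Control and 0.31, 0.37, 0.28 and 0.41 FPKM in Steatosis, or about 8 to 28 fragments per library. Control pool 1, the pool with muscle and stomach markers, held the highest value of all 8 libraries, and the other 3 Control pools lay below every Steatosis pool. The means were 0.2375 ± 0.158 and 0.3425 ± 0.0585 FPKM, with a log2 fold change of 0.48 (95% interval -0.22 to 1.18) and an adjusted p of 0.268 in limma. Without Control pool 1 the log2 fold change was 0.77 with an adjusted p of 0.0458 in limma. PTGS2 reached 0.3 FPKM in Control pool 1 and 3 Steatosis pools, and so passed the filter with exactly the 4 libraries it requires. Without Control pool 1 it would not pass, since only Steatosis pools then reach 0.3 FPKM. The fit without that pool kept the genes filtered on all 8 libraries, so its adjusted p for PTGS2 carries no weight as a test.

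TBXAS1 (gene ID 397112; chromosome 18, 9717291 to 9886699) encodes thromboxane A synthase, whose product contracts vessels and aggregates platelets. It measured 1.80, 1.85, 2.06 and 1.39 FPKM in Control and 3.07, 3.30, 3.23 and 3.11 FPKM in Steatosis. The groups did not overlap, and the Steatosis pools were tightly grouped, with an SD of 3.34% of their mean against 15.8% in Control. The means were 1.78 ± 0.280 and 3.18 ± 0.106 FPKM, a log2 fold change of 0.82 (SE 0.14, 95% interval 0.51 to 1.13) with an adjusted p of 0.00251 in limma.

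HPGDS (gene ID 100623584; chromosome 8, 125375906 to 125406066) encodes haematopoietic prostaglandin D synthase, typical of mast cells and some macrophages. It was listed at 0 in 6 of the 8 libraries and at 0.06 FPKM in Control pool 3 and Steatosis pool 2. That value corresponds to about 1 fragment, so HPGDS was at the limit of detection in both groups and no fold change is given.

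HPGD (gene ID 100156186; chromosome 14, 15718261 to 15773534) encodes 15-hydroxyprostaglandin dehydrogenase, which begins the inactivation of prostaglandins, and it was the 1 enzyme that fell. It measured 157, 150, 158 and 134 FPKM in Control and 108, 100.3, 118 and 90.6 FPKM in Steatosis. Every Steatosis pool lay below every Control pool, and pool 4 was the lowest of both groups. The means were 150 ± 11.3 and 104 ± 11.6 FPKM, a log2 fold change of -0.52 (SE 0.10, 95% interval -0.76 to -0.29) with an adjusted p of 0.00528 in limma. Among all tested genes, 2.89% had a lower fold change. With median ratio scaling the log2 fold change was -0.80 (adjusted p 0.00134 in limma), and it lay between -0.59 and -0.46 when single libraries were left out. The row of HPGD sums 7 transcripts, of which 1 was assembled by the authors from these reads.

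PLA2G7 (gene ID 396593; chromosome 7, 41488152 to 41531383) encodes the secreted PAF acetylhydrolase, also called lipoprotein-associated phospholipase A2, which is made largely by macrophages. It measured 24.6, 26.6, 27.4 and 19.4 FPKM in Control and 44.0, 51.4, 46.5 and 29.97 FPKM in Steatosis. The groups did not overlap, and pool 4 was the lowest of both. The means were 24.5 ± 3.62 and 43.0 ± 9.20 FPKM, a log2 fold change of 0.79 (SE 0.17, 95% interval 0.40 to 1.18) with an adjusted p of 0.0089 in limma. With median ratio scaling the log2 fold change was 0.52 (adjusted p 0.0472 in limma).

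**Figure D2:**
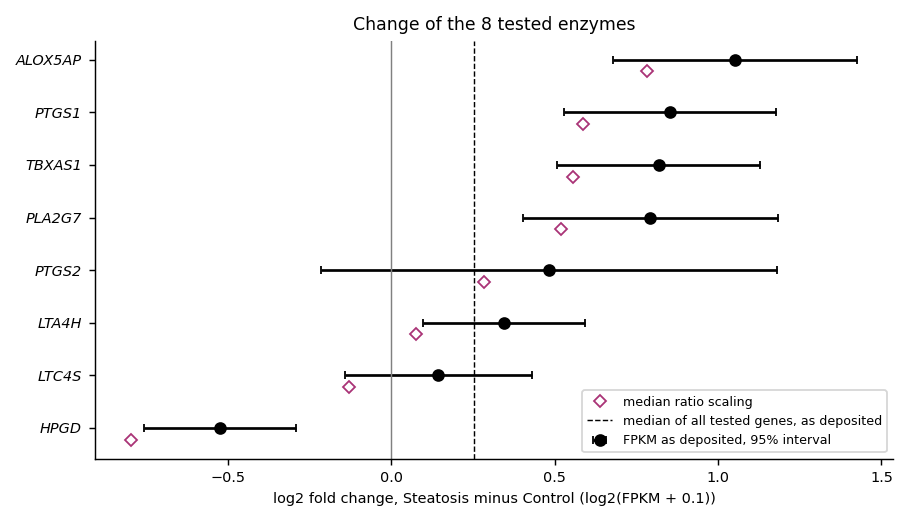
Log2 fold change of FPKM + 0.1, Steatosis minus Control (horizontal axis), of the 8 tested enzymes. Black points and bars are estimates and 95% intervals from FPKM as deposited, open diamonds the estimates after median ratio scaling, and the dashed line the median of all tested genes (0.25). HPGD alone lies below 0 by both scalings, and LTC4S crosses from 0.14 to -0.13.

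Between libraries of the same number, 5 enzymes were higher in Steatosis in all 4 comparisons and 1, HPGD, was lower in all 4. For all of these but LTA4H, that follows from the lack of overlap between the groups. The share of all tested genes was not counted. It is at least the 29.6% (higher) and 2.53% (lower) whose groups did not overlap. After the group means were removed, the levels of PLA2G7 went with those of HPGD (Pearson r 0.75), ALOX5AP (0.70) and TBXAS1 (0.64) over the 8 libraries, and those of ALOX5AP went against those of LTA4H (-0.68). The pairs were picked as the strongest of all pairs of tested enzymes, and the next was LTA4H with PTGS2 (0.62). PLA2G7 and HPGD were both lowest in pool 4 of each group. These correlations describe 8 libraries that share pool numbers and total RNA composition.

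Ratios between enzymes within a library hardly depend on scaling between libraries, since only the pseudocount ties them to it. Of 7 pairs listed, the pairs with HPGDS gave no value, and 5 were compared by exact permutation tests. No pair passed after adjustment over the 5 pairs. The ratio of ALOX5 to PTGS1 was lower in Steatosis by 0.82 on the log2 scale (-3.26 ± 0.45 against -4.08 ± 0.15, exact permutation p 0.0286, adjusted 0.143), and without the pseudocount its ranges overlapped. ALOX5AP to ALOX5 was 4.49 ± 0.57 in Control and 5.51 ± 0.44 in Steatosis (exact permutation p 0.0857, adjusted 0.143). HPGD to PTGS2 was 8.89 ± 0.57 and 7.88 ± 0.35 (exact permutation p 0.0571, adjusted 0.143). Without Control pool 1 the ratio of HPGD to PTGS2 differed by -1.27 in place of -1.01 (exact permutation p 0.0286, unadjusted). LTC4S to LTA4H differed by -0.20 and PTGS2 to PTGS1 by -0.37, with adjusted exact permutation p values of 0.321 and 0.4, and without Control pool 1 the latter differed by -0.03. Without Control pool 3, ALOX5AP to ALOX5 differed by 1.29 and PTGS2 to PTGS1 by -0.60, each at an unadjusted exact permutation p of 0.0286. The same unadjusted p was reached by ALOX5AP to ALOX5, PTGS2 to PTGS1 and HPGD to PTGS2 with a pseudocount of 1, which weighs heavily on ALOX5 and PTGS2.

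The ratio of the prostaglandin-inactivating HPGD to the prostaglandin-forming PTGS1 was added after the values were seen and is given with no test. HPGD exceeded PTGS1 by 48.9 to 63.2 times in Control and by 13.7 to 26.4 times in Steatosis, with means of 53.7 ± 6.60 and 20.8 ± 5.28. The groups did not overlap, which follows from the lack of overlap of both enzymes in opposite directions. Steatosis pool 4 was the lowest.

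**Figure D3:**
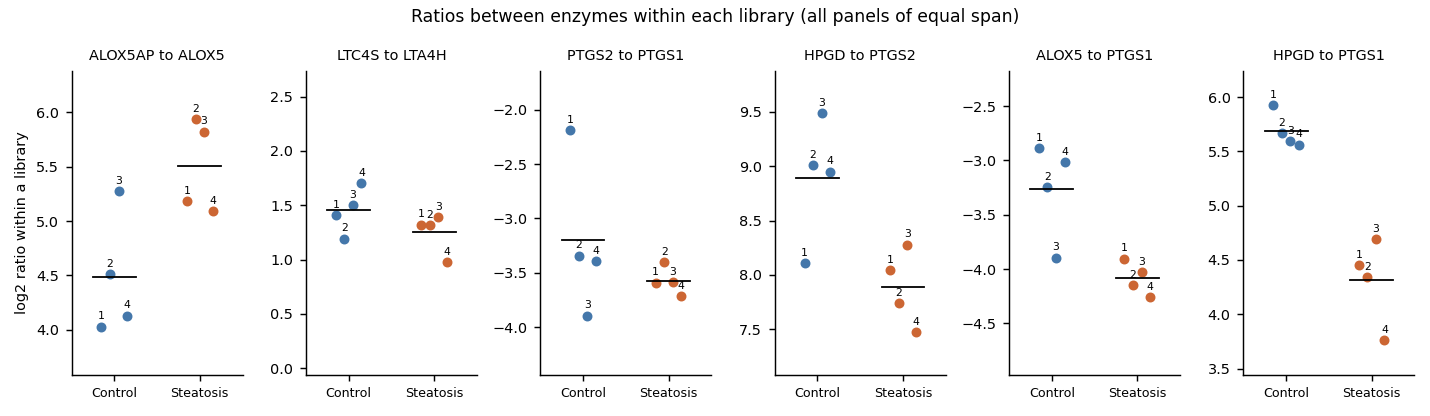
Log2 ratio of FPKM + 0.1 between enzymes within each library (vertical axes, all of equal span), with pool numbers and group means as lines. HPGD to PTGS1 and ALOX5 to PTGS1 do not overlap between Control and Steatosis, and the other 4 ratios do.

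In bulk liver RNA, more cells of a type and more RNA per cell cannot be told apart, so markers of the cell types known for these enzymes were set beside them. Of 15 macrophage markers, 9 rose at an adjusted p under 0.05 in limma and 6 did not pass (C1QA, CD14, CD163, TIMD4, MRC1 and CD5L), and none was at 0 in all libraries. CD5L was 190 ± 36.7 FPKM in Control and 148 ± 10.4 FPKM in Steatosis, lower without overlap, with an adjusted p of 0.0709 in limma. Their sum was 1126 to 1469 FPKM in Control and 1559 to 1775 FPKM in Steatosis, led by the complement genes C1QB (293 ± 40.0 and 453 ± 26.0 FPKM), C1QC (227 ± 33.6 and 307 ± 26.0 FPKM) and C1QA (200 ± 34.6 and 208 ± 21.7 FPKM). CD14, the fourth most abundant, was 204 ± 16.5 and 179 ± 18.5 FPKM. The 9 markers of lipid-associated macrophages summed to 108 to 133 FPKM in Control and 1034 to 2222 FPKM in Steatosis. The 10 pan-leukocyte markers summed to 202 to 291 FPKM and 552 to 587 FPKM.

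The mean log2 level of the macrophage markers was 5.09 ± 0.17 in Control and 5.93 ± 0.07 in Steatosis, a difference of 0.84. The markers moved unevenly, with log2 fold changes from -0.34 (CD5L) to 3.33 (MARCO) and a median of 0.62. MARCO, MSR1 (2.35) and CD68 (2.01) rose most. A difference near 0 below therefore does not mean a rise equal to that of the median marker. Relative to the mean level of the markers, the groups overlapped in the 4 enzymes that had not overlapped on the higher side. The differences, Steatosis minus Control, were 0.21 for ALOX5AP, 0.01 for PTGS1, -0.02 for TBXAS1 and -0.05 for PLA2G7, with exact permutation p values between 0.229 and 0.943. Without Control pool 4, TBXAS1 differed by -0.20 at an exact permutation p of 0.0286. Since the markers themselves rose by 0.84 on average, any enzyme that rose less than that comes out lower by this measure. The log2 fold change of FPKM alone was -0.52 for HPGD and 0.14 for LTC4S, which did not pass the test. Relative to the macrophage markers, HPGD was lower by 1.37 and LTC4S by 0.70, both without overlap. Both had an exact permutation p of 0.0286, the smallest that 4 against 4 libraries can give. Adjusted over the 8 enzymes compared, that p was 0.114. With single libraries left out, the difference for LTC4S lay between -0.81 and -0.59. Its exact permutation p was then 0.0571 in 5 cases and 0.0286 in the rest. Over all alternatives run, the difference for HPGD lay between -1.56 and -1.27, with an exact permutation p of 0.0286 in each. LTA4H differed by -0.50 at an exact permutation p of 0.0571, and by -0.69 with the median of the markers and -0.66 with the pan-leukocyte markers in their place, both at an exact permutation p of 0.0286. PTGS2 differed by -0.36 at an exact permutation p of 0.486, by -0.0056 without Control pool 1, and by -0.68 with a pseudocount of 1 (exact permutation p 0.0286). Between libraries of the same number, ALOX5AP was higher relative to the markers in all 4 comparisons, and LTA4H, LTC4S and HPGD were lower in all 4. In pool 3, ALOX5AP was nearly level, at -1.96 in Control and -1.94 in Steatosis on the log2 scale. Over all alternatives run, the difference for ALOX5AP lay between 0.01 and 0.33. It was 0.01 with the median of the markers and 0.04 with the pan-leukocyte markers in their place. The part of macrophage number in the levels of the enzymes was not tested.

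**Figure D4:**
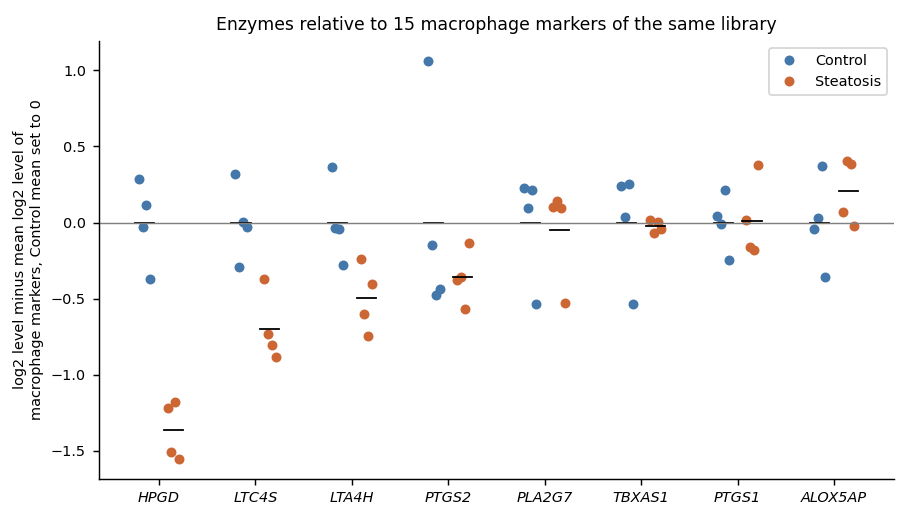
Log2(FPKM + 0.1) of the 8 tested enzymes minus the mean log2 level of 15 macrophage markers of the same library (vertical axis, with the Control mean of each gene set to 0). Points are libraries and lines are group means. ALOX5AP, PTGS1, TBXAS1 and PLA2G7 lie around 0 in both groups, and HPGD and LTC4S lie below all Control libraries. The markers themselves rose by 0.84 on average, but unevenly, and an enzyme that rose less than that lies lower here.

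Markers of mast cells, eosinophils, platelets and neutrophils were low. The 5 mast cell markers in the table summed to 3.25 to 4.47 FPKM in Control and 4.42 to 6.59 FPKM in Steatosis, led by FCER1A (1.71 ± 0.506 and 2.15 ± 0.706 FPKM), and 2 of them rose (GATA2 and HDC). The 3 eosinophil markers in the table (CCR3, EPX and IL5RA) summed to at most 0.37 FPKM. The 8 platelet and megakaryocyte markers summed to 2.43 to 4.52 FPKM and 3.50 to 3.90 FPKM, led by ITGA2B (2.80 ± 0.760 and 2.60 ± 0.0812 FPKM), and GP9 rose. Of 9 neutrophil markers, 5 were tested and 1 rose (CSF3R), and their sums overlapped between the groups.

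Markers of other cells of the liver were counted in the same way. Among all tested genes 26.7% rose and 2.28% fell, and the counts of these lists and those above stand beside these shares. The 9 markers of liver sinusoidal endothelium in the table summed to 221 to 265 FPKM in Control and 319 to 351 FPKM in Steatosis without overlap, led by CLEC4G (98.1 ± 13.0 and 110 ± 6.60 FPKM), and 3 of them rose (RAMP2, PECAM1 and KDR). Of 10 hepatic stellate cell markers, 4 rose (LRAT, PDGFRB, RELN and RGS5) and 1 fell (LUM), with overlapping sums. Of 4 tested B cell markers, 3 fell (JCHAIN, CD79A and MS4A1), and the sum over the list was 17.7 to 46.9 FPKM in Control and 11.7 to 16.1 FPKM in Steatosis. Of 9 T and NK cell markers, 1 rose (NKG7), and of 5 tested cholangiocyte markers, 1 rose (SPP1, which is also a marker of lipid-associated macrophages). Of 10 hepatocyte markers, 2 rose and 1 fell, with a median log2 fold change of -0.06. Their sums overlapped, at 64323 to 96946 FPKM in Control and 57554 to 70203 FPKM in Steatosis. The part of these cells in the levels of the enzymes was not tested.

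The rest of the pathway was read from lists of 90 genes in 8 groups, of which 71 were in the table and 61 were tested. At an adjusted p under 0.05 in limma, 22 (36.1%) were higher and 1 (1.64%) was lower in Steatosis, against 26.7% and 2.28% of all tested genes. The share that was higher lay below that background in both receptor lists and above it in the other 6, at most at 44.4% in the PAF list. The lists held only 3 to 13 tested genes, so a single gene could decide the side. In the other lipoxygenases 1 of 3 was higher, and in the leukotriene and lipoxin receptors 1 of 4. With median ratio scaling, 15 of the 61 were higher and 5 lower at the same adjusted p. With the limits of the study, 11 (18.03%) of the 61 were higher and 0 were lower, against 6.01% and 0.334% of all tested genes. With median ratio scaling these counts of pathway genes were 3 and 1. Their median log2 fold change was 0.40. Pathway genes short of both limits, other than receptors, were named after their values were seen, as were the markers named for rising or falling.

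Of 12 tested genes of phospholipases A2 and substrate supply, 4 rose and 1 fell. ACSL4, which activates arachidonic acid with coenzyme A, rose from 5.61 ± 2.07 to 12.5 ± 1.56 FPKM (log2 fold change 1.20, adjusted p 0.00384 in limma), and the lysosomal phospholipase PLA2G15 from 2.86 ± 0.3003 to 6.46 ± 0.290 FPKM. LPCAT3, which puts polyunsaturated acids back into phospholipids, and PLA2G4A, the cytosolic phospholipase A2 that frees arachidonic acid for both branches, rose by 0.92 and 0.61 on the log2 scale. PLA2G12A, a secreted phospholipase A2, fell by 0.86 on the log2 scale, from 27.1 ± 4.79 to 14.9 ± 3.35 FPKM (adjusted p 0.00611 in limma).

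In the list of other lipoxygenases, COTL1, an actin-binding protein that also binds 5-lipoxygenase, rose from 5.85 ± 1.31 to 14.6 ± 3.42 FPKM. ALOX12 and ALOX15 did not pass the test. In the leukotriene processing list, 3 of 7 tested genes rose. GGT1, which trims leukotriene C4 to D4, rose from 2.50 ± 1.04 to 6.06 ± 0.826 FPKM, and the leukotriene C4 exporter ABCC1 from 0.958 ± 0.260 to 2.13 ± 0.376 FPKM. The third was the glutathione transferase MGST3 (103 ± 17.9 and 137 ± 8.92 FPKM).

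Of 13 tested prostanoid synthases, reductases and transporters, 5 rose and 0 fell. PTGES, the inducible prostaglandin E synthase, rose from 1.44 ± 0.387 to 3.62 ± 0.549 FPKM (log2 fold change 1.29, adjusted p 0.00128 in limma). The reductases CBR3 and AKR1B1 rose by 1.46 and 1.39 on the log2 scale and the prostaglandin exporter ABCC4 by 1.07. PTGR1, which acts on the product of HPGD, rose by 0.58 from 106 ± 23.5 to 156 ± 15.8 FPKM. PTGES2, PTGES3, PTGDS and PTGIS did not pass the test. Of 8 tested epoxygenases and epoxide hydrolases, 3 rose, all of them epoxide hydrolases, EPHX1 (log2 fold change 0.71), EPHX2 (0.78) and EPHX3 (0.99).

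Receptors were measured at low levels. The thromboxane receptor TBXA2R rose from 2.39 ± 0.373 to 3.53 ± 0.575 FPKM (log2 fold change 0.54, adjusted p 0.0339 in limma), although its ranges overlapped. The prostaglandin receptors PTGER2, PTGER3, PTGER4 and PTGIR had means of at most 1.02 FPKM in either group and did not pass the test. Among receptors for leukotrienes and lipid mediators of resolution, CMKLR1 rose from 1.66 ± 0.204 to 4.27 ± 1.20 FPKM (log2 fold change 1.27, adjusted p 0.00229 in limma). The cysteinyl leukotriene receptors CYSLTR1 and CYSLTR2 and the leukotriene B4 receptor LTB4R2 did not pass the test, with adjusted p values of 0.144, 0.0518 and 0.411 in limma.

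Around PLA2G7, the PAF list had 9 tested genes, of which 4 rose and 0 fell. The PAF receptor PTAFR rose from 2.62 ± 0.677 to 5.34 ± 0.656 FPKM (log2 fold change 1.03, adjusted p 0.00431 in limma). The acyltransferases LPCAT1 and LPCAT2, the second of which makes PAF in inflammatory cells, rose by 0.70 and 0.48 on the log2 scale. The intracellular hydrolase PAFAH2 rose by 0.58, and the 3 subunits PAFAH1B1, PAFAH1B2 and PAFAH1B3 of the other intracellular hydrolase did not pass the test.

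**Figure D5:**
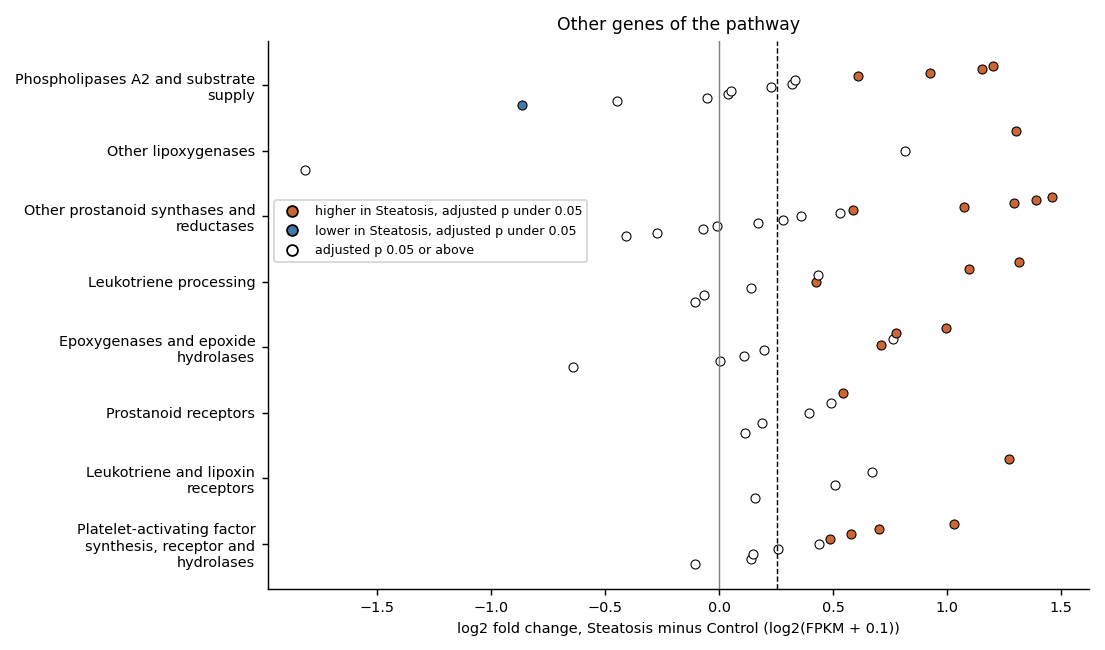
Log2 fold change of FPKM + 0.1, Steatosis minus Control (horizontal axis), of the 61 tested genes around the enzymes in 8 lists. Each point is a gene, coloured where the adjusted p was under 0.05 in limma (22 higher, 1 lower), and the dashed line is the median of all tested genes (0.25).

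The patterns of other genes were compared with those of the enzymes at both ends of the range. The 5 genes most like ALOX5AP over the 8 libraries, by Pearson r of log2 levels, were LOC100156074, PLEKHA2, HEATR5B, LPXN and SLAMF6, with r between 0.987 and 0.992. The 5 most like HPGD were VDAC1, LARP1B, PEBP4, TMA16 and ZBED3, with r between 0.968 and 0.985. PEBP4 had a log2 fold change of -3.03, and VDAC1 one of only -0.20. These genes were picked as the highest of all tested genes, and the r is a description of 8 libraries in 2 groups.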

How the data were processed

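Hepatic RNA of 8 pools was sequenced in paired reads of 100 bp. According to the study's methods, filtered reads were mapped to Sus scrofa 11.1 and transcripts assembled with StringTie. The submitters' processing notes name HISAT2 2.0.4, Bowtie2 2.2.5 and RSEM 1.2.12. FPKM values per gene, estimated by the authors and deposited as 1 table of 8 libraries, were used without further scaling, and no scaling between libraries is stated. The authors also deposited 4 tables of single pairs of pools with fold changes and error rates, which were not used apart from gene lengths. Coordinates are those of RefSeq, assembly Sscrofa11.1, matched by gene ID for all 10 enzymes.

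The 13175 of 18103 genes that reached 0.3 FPKM in 4 or more of the 8 libraries were tested for a difference between the groups. Values were transformed to log2(FPKM + 0.1) and fitted with limma 3.58.1 (R 4.3.3, trend option, no covariates). P values were adjusted by Benjamini-Hochberg over all of these genes. Fold changes are on that scale, which understates those of low genes. Single values and ratios were compared by two-sided exact permutation tests, whose smallest p is 0.0286. They were run in Python 3.11.15 with scipy 1.17.1, pandas 2.3.3 and numpy 2.4.6, and matplotlib 3.10.9 drew the plots. The fit was tested on simulated data.

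Numbers of fragments were read from the spacing of low values in 700 to 1100 bp genes, where 85.9% to 95.1% lay within 0.2 of a whole number, and are approximate. No counting error is given with the FPKM values, so precision is stated as the SD between pools.

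The enzymes and gene lists were chosen with earlier results of these data known. Named genes were all 10 enzymes, of each pathway list at most 4 genes past both limits with the largest fold change, every tested receptor, the most abundant markers (at most 4 per list), and 5 genes of like pattern for 2 enzymes. Further pathway genes and markers were named after their values were seen. Libraries of the same pool number deviated together from their group means (r 0.16, 0.35, 0.32 and 0.25 for pools 1 to 4, over all tested genes), so the numbers were taken to pair them, which the labels do not state. The block on pool number, other scalings, pseudocounts, filters and left-out libraries were alternatives.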

Additional observations from a re-analysis of the deposited data

Results flagged for a closer look

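Of 46 groups of 4 values checked, 4 held a value standing far from the other 3, and chance alone flags about 1 in 20 groups. For HPGDS, 1 of 4 libraries was above 0 in Control and 1 of 4 in Steatosis, so the gap took the whole range in both groups (1.0 of the range each), at about 1 fragment. PLA2G7 relative to the macrophage markers was lowest in pool 4 of both groups, at -1.02 in Control and -1.01 in Steatosis on the log2 scale, against -0.38 to -0.25 and -0.39 to -0.34 in the other pools. Its gap took 0.834 of the range in Control and 0.927 in Steatosis, over the critical value of Dixon's test at the 95% level.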

How the results depend on the processing

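The scaling of FPKM between libraries is not stated, depth allowed no statement on ALOX5 and HPGDS, and 4 pools per group limit every test. Counts past both limits (adjusted p under 0.01, log2 fold change beyond 1) were 1 enzyme higher and 0 lower, 792 and 44 of all genes, and 11 and 0 of the other pathway genes. They were 0, 411 and 83, and 3 and 1 with median ratio scaling, for enzymes higher, all genes higher and lower, and pathway genes higher and lower. They were 0, 453 and 67, and 4 and 1 with upper quartile scaling. A pseudocount of 1 gave 0 enzymes, 395 genes and 4 pathway genes higher, and limma's treat against a log2 fold change of 1 gave 0, 68 and 0 higher and 1 gene lower. At an adjusted p under 0.05 with no fold limit there were 5 and 1 enzymes, 3519 and 300 genes, and 22 and 1 pathway genes. Without pool 3 of both groups 20 genes were lower and 5 pathway genes higher. With single libraries left out, enzymes higher ranged from 0 to 1, genes lower from 26 to 50 and pathway genes higher from 6 to 10. At an adjusted p under 0.05, treat gave 0 enzymes higher and 0 lower, and 0 and 0 pathway genes. In place of 5 enzymes higher there were 4 with median ratio, common sum or upper quartile scaling, and 4 without pool 3. With single libraries left out there were 4 to 6, where the 6 without Control pool 1 include PTGS2. In place of 22 pathway genes higher there were 15 with median ratio and 15 with upper quartile scaling. In place of 1 pathway gene lower there were 5 with median ratio and 5 with upper quartile scaling, 2 with no filter, 2 without pool 3, and 1 to 3 with single libraries left out. With the pool number as a replicate block, 3 pathway genes were lower (ALOX15 and CYP2C33 besides PLA2G12A), 785 genes passed both limits higher and 57 lower, and the block changed no call of an enzyme. The cause of these changes was not tested. No direction of an enzyme that passed the test was reversed by any alternative run. LTC4S, which did not pass, had a log2 fold change of -0.13 with median ratio and -0.08 with upper quartile scaling.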
